A study of Mus musculus with 6 samples.

Results

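The genes described here encode VEGF and angiopoietin ligands and their receptors: the ligands Vegfa, Vegfb, Vegfc and Angpt1, the receptor tyrosine kinases Kdr, Flt1, Flt4 and Tek, and the coreceptors Nrp1 and Nrp2. They were the rows of the deposited table whose gene symbol equalled one of these names, 10 of the 47480 genes in the table. Expression was compared between VMHpvlm and VMHpvll, the medial and the lateral area of the posterior ventrolateral ventromedial hypothalamus, by RNA sequencing of tissue cut with a laser from frozen brain sections of female mice. All libraries share 1 genotype, VgluT2-cre/Ai6, in which Cre made under VgluT2 (Slc17a6) control switches on a fluorescent reporter in glutamatergic cells. The labels name no treatment and no control genotype, and neither the age of the mice nor the outline used to cut each area is given in the sources used here. Each area had 3 libraries, whose titles carry the names F19, F20 and KH_161103 in both areas. The labels do not say whether libraries of 1 name come from the same animal, and p-values therefore reflect only how much these libraries vary.

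VEGF ligands are secreted proteins that act on receptor tyrosine kinases of endothelial cells, the cells that line blood vessels. VEGF-A, the product of Vegfa, drives vessel growth and permeability mainly through the receptor encoded by Kdr, whereas the Flt1 product binds VEGF-A tightly, signals weakly and acts largely as a decoy. Neuropilins, encoded by Nrp1 and Nrp2, are coreceptors for VEGFs and also receptors for class III semaphorins on neurons. Angiopoietin-1, the product of Angpt1, stabilises vessels through the receptor encoded by Tek. In the brain, VEGF-A is made by astrocytes and neurons among other cells, and the captured tissue holds all cell types of the area, not only those marked by the reporter.

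Recovered sequencing depth was between 7157831 reads in the F20 library of VMHpvll and 11293159 reads in the KH_161103 library of VMHpvlm. The transcript Gm42418 held between 11.6% and 17.9% of the reads of a library. The glutamatergic marker Slc17a6 was at 4665 ± 139 normalised reads in VMHpvlm and 4946 ± 17.1 in VMHpvll (SD, n = 3 each; adjusted p = 0.0859). Nr5a1, a transcription factor of the ventromedial hypothalamus, was at 308 ± 19.5 normalised reads in VMHpvlm and 31.5 ± 6.73 in VMHpvll, and the oestrogen receptor gene Esr1 had 513 ± 74.0 in VMHpvlm and 1490.5 ± 63.8 in VMHpvll. Endothelial markers were read in all libraries: each of the 29 genes of the endothelial list was above 0 in every library. All levels below are normalised read counts, which are reads per gene after division by the size factor of the library. A difference is the value in VMHpvlm less that in VMHpvll as log2(value + 1), with its standard error, and folds are ratios of the means.

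Most of these genes were lower in VMHpvlm than in VMHpvll. By limma's moderated test on all 14522 genes with a mean of at least 10, with Benjamini-Hochberg adjustment, 7 of the 10 were called lower in VMHpvlm at an adjusted p below 0.05: Vegfa, Angpt1, Kdr, Flt1, Flt4, Nrp1 and Nrp2. Over all genes tested, 9.48% were called in this direction. The 10 genes were chosen with earlier results of these data known. Setting their counts beside the shares of all genes is therefore a description and not a test. Vegfb, Vegfc and Tek were not called. With edgeR the count was again 7, against 10.4% of all genes, and with DESeq2 it was 6, against 4.01%. None of the 10 was called higher in VMHpvlm by limma, edgeR or DESeq2, where these tools called 10.5%, 10.5% and 4.46% of all genes, and 0 had an unadjusted p below 0.05 in that direction with limma. Without the trend and robust settings of the variance prior, 4 were called lower in VMHpvlm, against 1.60% of all genes. All 10 passed the filter on low values. Their median difference was -0.76 (log2), beside 0.0025 over all genes tested. The groups did not overlap for 7 of the 10 genes, with VMHpvll above, as for 13.5% of all genes. In 3 of 3 pairs, 8 of the 10 were lower in VMHpvlm, including Vegfb, which was not called. The share of all genes lower in 3 of 3 pairs was not counted. In bulk tissue, fewer cells of a type and less RNA per cell cannot be told apart.

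**Figure D1:**
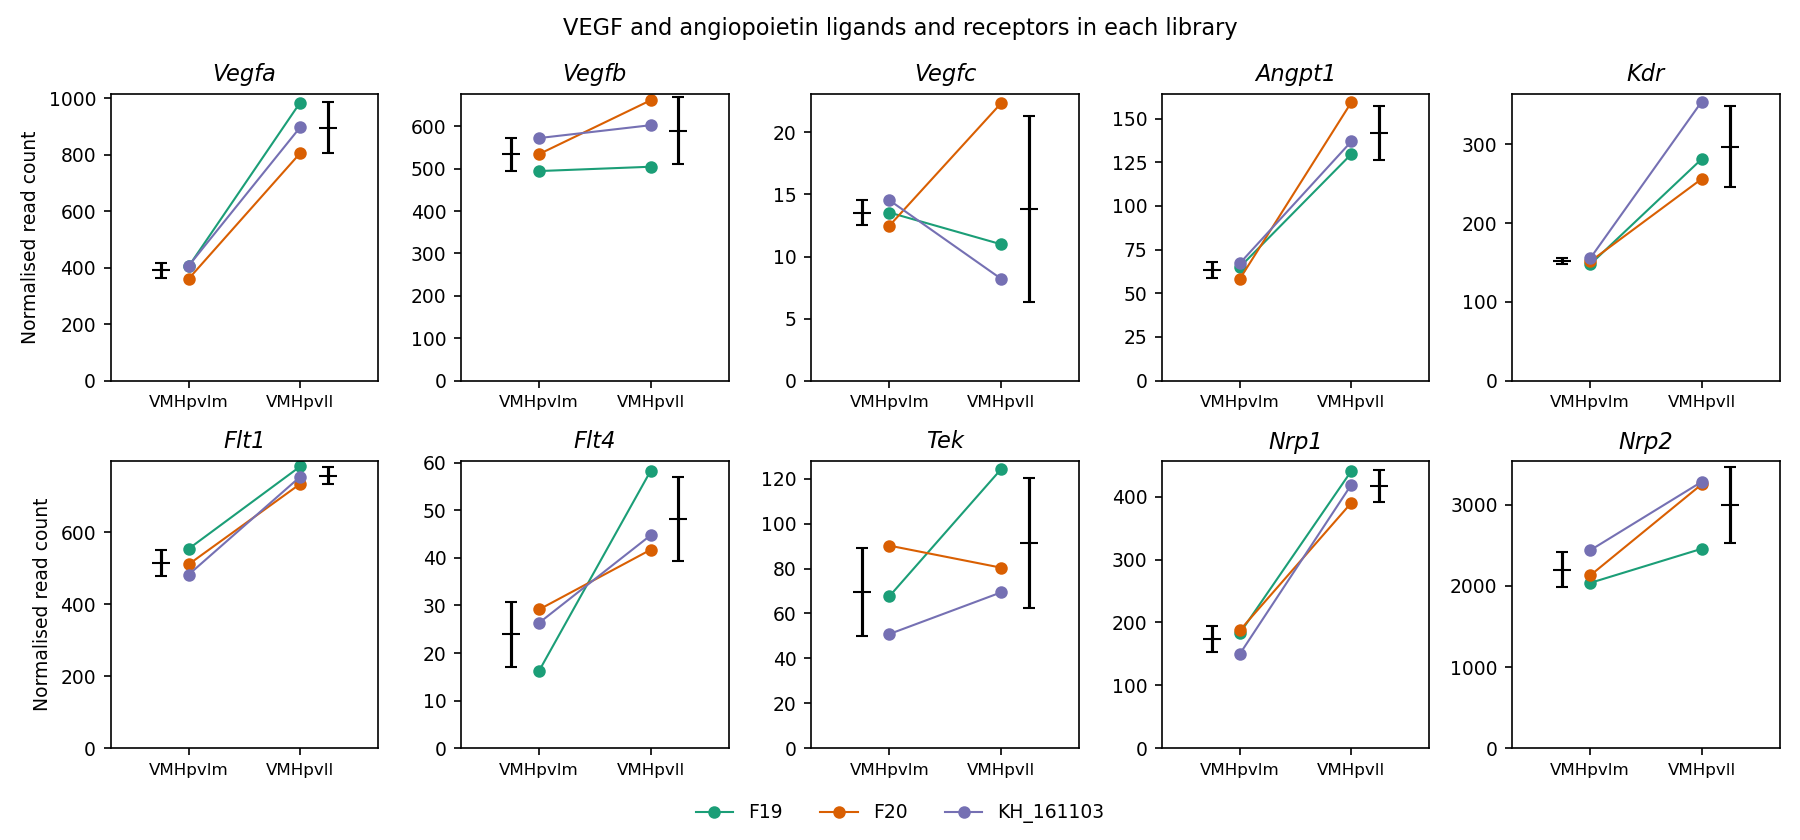
Normalised read counts of the 10 genes in each library, on axes that start at 0, with VMHpvlm left of VMHpvll; points are libraries, lines join the libraries of 1 pair name, and black marks are means with their SD (n = 3). The libraries of VMHpvlm lie below all those of VMHpvll for Vegfa, Angpt1, Kdr, Flt1, Flt4, Nrp1 and Nrp2, and the areas overlap for Vegfb, Vegfc and Tek.

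The promoters of the ligand gene Vegfa and of its called receptor and coreceptor genes Kdr, Flt1 and Nrp1 are shown because the RNA of these 4 genes was lower in VMHpvlm together. Each sequence is the 250 bases before the RefSeq transcript start (RefSeq, GRCm38.p6, the same build as mm10), read 5′ to 3′ on the gene's strand, and capitals mark GC boxes (GGGCGG, or CCGCCC where the motif lies on the other strand). The windows are chr17:46032378-46032627 (minus strand) for Vegfa, chr5:75978456-75978705 (minus strand) for Kdr, chr5:147726012-147726261 (minus strand) for Flt1 and chr8:128358823-128359072 (plus strand) for Nrp1. The Nrp1 window lies in an intron of the annotated gene, whose first exon starts upstream.
Vegfa: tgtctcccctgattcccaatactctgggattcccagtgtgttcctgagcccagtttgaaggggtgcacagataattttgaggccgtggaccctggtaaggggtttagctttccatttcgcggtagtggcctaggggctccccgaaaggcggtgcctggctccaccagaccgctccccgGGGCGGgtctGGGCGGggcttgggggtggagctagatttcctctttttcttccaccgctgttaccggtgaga
Kdr: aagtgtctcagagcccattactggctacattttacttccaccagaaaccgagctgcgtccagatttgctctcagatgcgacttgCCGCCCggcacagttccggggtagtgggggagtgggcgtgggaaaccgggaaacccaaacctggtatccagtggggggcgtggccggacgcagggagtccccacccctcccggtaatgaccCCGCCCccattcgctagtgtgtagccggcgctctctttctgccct
Flt1: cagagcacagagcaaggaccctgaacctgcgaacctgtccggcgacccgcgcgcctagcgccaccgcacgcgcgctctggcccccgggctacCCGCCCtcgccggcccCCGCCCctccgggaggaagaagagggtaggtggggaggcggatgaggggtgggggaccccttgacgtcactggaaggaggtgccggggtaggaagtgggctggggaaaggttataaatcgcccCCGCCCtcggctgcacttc
Nrp1: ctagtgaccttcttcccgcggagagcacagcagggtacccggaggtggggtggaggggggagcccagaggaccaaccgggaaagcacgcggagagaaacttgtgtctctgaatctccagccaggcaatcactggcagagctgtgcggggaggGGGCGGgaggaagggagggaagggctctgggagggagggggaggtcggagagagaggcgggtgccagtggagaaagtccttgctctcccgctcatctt

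Of the 10 genes, 9 had a window in the RefSeq table. GGGCGG, searched on both strands, was in the window of 8 of these 9, all but Tek, and in 32.7% of the 32851 windows of the table. The Kdr and Flt1 windows hold it on the strand opposite to the gene, and the Vegfa and Nrp1 windows on the gene's own strand. ACGTG, 1 form of the core of the hypoxia response element, was in 0 of the 9 windows, against 16.6% of all windows, also searched on both strands. Other forms of this core, such as GCGTG, and bases farther upstream were not searched. A second RefSeq start of Vegfa, inside the gene, has 1 ACGTG in its own window. TATAAA was in the Flt1 window alone among the 9, starting at position -31 from the transcript start, and in 12.4% of all windows. Matches of different motifs did not overlap in the 9 windows. All 250 bases of the Flt4 window and 32 of the Nrp2 window lie in annotated exons of the gene itself. The share of G and C ran from 51.2% in the Tek window to 76.4% in the Vegfb window, and that of all windows was not computed. The Vegfb and Vegfc windows, of genes that were not called, hold GC boxes as well. These matches describe letters and are not sites of binding.

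Vegfa, the principal ligand, was at 405, 361 and 407 normalised reads in the F19, F20 and KH_161103 libraries of VMHpvlm, against 985, 806 and 897 in those of VMHpvll. The highest VMHpvlm library was below the lowest VMHpvll library by a wide margin. The means were 391 ± 26.0 in VMHpvlm and 896 ± 89.6 in VMHpvll (SD, n = 3 each), 2.29-fold higher in VMHpvll, with a difference of -1.19 ± 0.068 (limma adjusted p = 2.39e-18). The pair differences were close together, at -1.28, -1.16 and -1.14. In mm10, Vegfa spans chr17:46016993-46032369 on the minus strand.

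Vegfb, a ligand of the Flt1 product that has little angiogenic effect of its own, was at 494, 534 and 572 normalised reads in VMHpvlm, against 505, 661 and 603 in VMHpvll. The areas overlapped, and the difference of -0.14 ± 0.072 was not called (limma adjusted p = 0.1999). The ratio of Vegfa to Vegfb within a library was 0.819, 0.675 and 0.711 in VMHpvlm and 1.95, 1.22 and 1.49 in VMHpvll, lower in every VMHpvlm library than in any VMHpvll library. An exact two-sided permutation test, which shuffled libraries regardless of pair name, gave p = 0.1, the smallest that 3 against 3 libraries allow. The ratio was chosen after the values were seen, and any ratio without overlap gives this p, so the test adds no support. Vegfb spans chr19:6982473-6987651 on the minus strand.

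Vegfc, the ligand of the Flt4 receptor and a growth factor of lymphatic vessels, had only 9 to 16 reads in a library. Its level was 13.5, 12.5 and 14.5 normalised reads in VMHpvlm, against 11.0, 22.3 and 8.22 in VMHpvll, where it varied more. The difference of 0.08 ± 0.41 was not called (limma adjusted p = 0.929), and its standard error allows a difference of either sign at this depth. Vegfc spans chr8:54077606-54187096 on the plus strand.

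Angpt1, the agonist of the Tek receptor, was at 65.0, 58.3 and 67.2 normalised reads in VMHpvlm, against 129.7, 159 and 137 in VMHpvll. The areas did not overlap. The means were 63.5 ± 4.64 in VMHpvlm and 142.0 ± 15.5 in VMHpvll (SD, n = 3 each), 2.24-fold higher in VMHpvll, with a difference of -1.15 ± 0.16 (limma adjusted p = 1.79e-07). The gene spans chr15:42424723-42676977 on the minus strand. Its exons share 737 bases with the antisense gene Gm17473, and no source used here states whether counting was stranded, which leaves some of its reads uncertain.

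Kdr, the main signalling receptor for VEGF-A, was at 148, 151 and 155 normalised reads in VMHpvlm, against 281, 256 and 354 in VMHpvll. All 3 VMHpvlm libraries were close together and far below the lowest VMHpvll library. The means were 151 ± 3.84 in VMHpvlm and 297 ± 50.9 in VMHpvll (SD, n = 3 each), 1.96-fold higher in VMHpvll, with a difference of -0.96 ± 0.11 (limma adjusted p = 2.88e-09). Kdr spans chr5:75932827-75978458 on the minus strand.

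Flt1, the decoy-like receptor on the same chromosome (chr5:147561604-147726011, minus strand), was at 554, 511 and 482 normalised reads in VMHpvlm, against 783, 734 and 754 in VMHpvll. The areas did not overlap, and the gap was smaller than for Kdr: the means were 516 ± 36.1 in VMHpvlm and 757 ± 24.4 in VMHpvll (SD, n = 3 each), 1.47-fold higher in VMHpvll. The difference was -0.55 ± 0.067 (limma adjusted p = 8.23e-09). The ratio of Flt1 to Kdr reads within a library was 3.75, 3.38 and 3.11 in VMHpvlm and 2.78, 2.87 and 2.13 in VMHpvll, higher in every VMHpvlm library (exact two-sided permutation p = 0.1, the smallest possible). This ratio and the others between genes were chosen after the values were seen.

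Flt4, the receptor for VEGF-C, known from lymphatic endothelium and sprouting vessels, had 12 to 53 reads in a library. It was at 16.3, 29.1 and 26.3 normalised reads in VMHpvlm, against 58.3, 41.7 and 44.7 in VMHpvll. The areas did not overlap, but the F19 pair was much farther apart than the others, at -1.78 beside -0.50 and -0.74. The difference over the 3 pairs was -1.01 ± 0.27 (limma adjusted p = 0.00454), and the mean was 2.02-fold higher in VMHpvll. Without the F19 pair the difference was -0.62 and was not called (adjusted p = 0.214), and DESeq2 did not call it either (adjusted p = 0.161). Flt4 spans chr11:49609263-49652739 on the plus strand. Of the 4 lymphatic markers, Ccl21a was at 0 in every library, and Lyve1 averaged 0.914 normalised reads in VMHpvlm and 1.36 in VMHpvll. Pdpn, which is not confined to lymphatic endothelium, averaged 62.2 in VMHpvlm, against 80.7 in VMHpvll, a difference that missed the threshold with all pairs (limma adjusted p = 0.144) and passed it without the F20 pair (limma adjusted p = 0.0219). Prox1, which marks lymphatic endothelium but is also made by neurons, was at 230.2 ± 27.1 in VMHpvlm and 356 ± 23.7 in VMHpvll (SD, n = 3 each; limma adjusted p = 2.40e-06).

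Tek, the angiopoietin receptor, was at 67.7, 90.2 and 50.9 normalised reads in VMHpvlm, against 124, 80.4 and 69.4 in VMHpvll. The areas overlapped: the F20 pair had the higher value in VMHpvlm and the other pairs in VMHpvll. The difference of -0.38 ± 0.18 was not called (limma, unadjusted p = 0.0428, adjusted p = 0.150). Without the F20 pair it was -0.65 and was called (adjusted p = 0.0154), and without the F19 pair it was -0.14 (adjusted p = 0.793). Tek spans chr4:94739289-94874976 on the plus strand. Its ligand gene Angpt1 was called lower in VMHpvlm and Tek was not, and whether the differences of the pair of genes differ from each other was not tested.

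Nrp1, a coreceptor for VEGF-A and a receptor for semaphorin 3A, was at 183, 187 and 149.9 normalised reads in VMHpvlm, against 441, 390.2 and 419 in VMHpvll. All 3 VMHpvlm libraries were far below the lowest VMHpvll library. The means were 173 ± 20.5 in VMHpvlm and 417 ± 25.4 in VMHpvll (SD, n = 3 each), 2.40-fold higher in VMHpvll, with a difference of -1.27 ± 0.10 (limma adjusted p = 7.10e-14). This was the largest difference in absolute size among the 10 genes. Nrp1 spans chr8:128358604-128503363 on the plus strand, and its exons hold the 80 bases of the microRNA gene Mir1903.

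Nrp2, the paralogous coreceptor, which binds VEGF-C and semaphorin 3F, was at 2037, 2129 and 2439.6 normalised reads in VMHpvlm, against 2458, 3253 and 3284 in VMHpvll. The highest VMHpvlm library lay just under the lowest VMHpvll library. The means were 2202 ± 211 in VMHpvlm and 2998 ± 468 in VMHpvll (SD, n = 3 each), 1.36-fold higher in VMHpvll, with a difference of -0.44 ± 0.047 (limma adjusted p = 4.11e-09). Without the pair block the difference was not called (adjusted p = 0.0917). The ratio of Nrp1 to Nrp2 reads within a library was 0.0898, 0.0880 and 0.0614 in VMHpvlm and 0.179, 0.120 and 0.128 in VMHpvll, higher in every VMHpvll library (exact two-sided permutation p = 0.1, the smallest possible). Nrp2 spans chr1:62703285-62818695 on the plus strand.

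**Figure D2:**
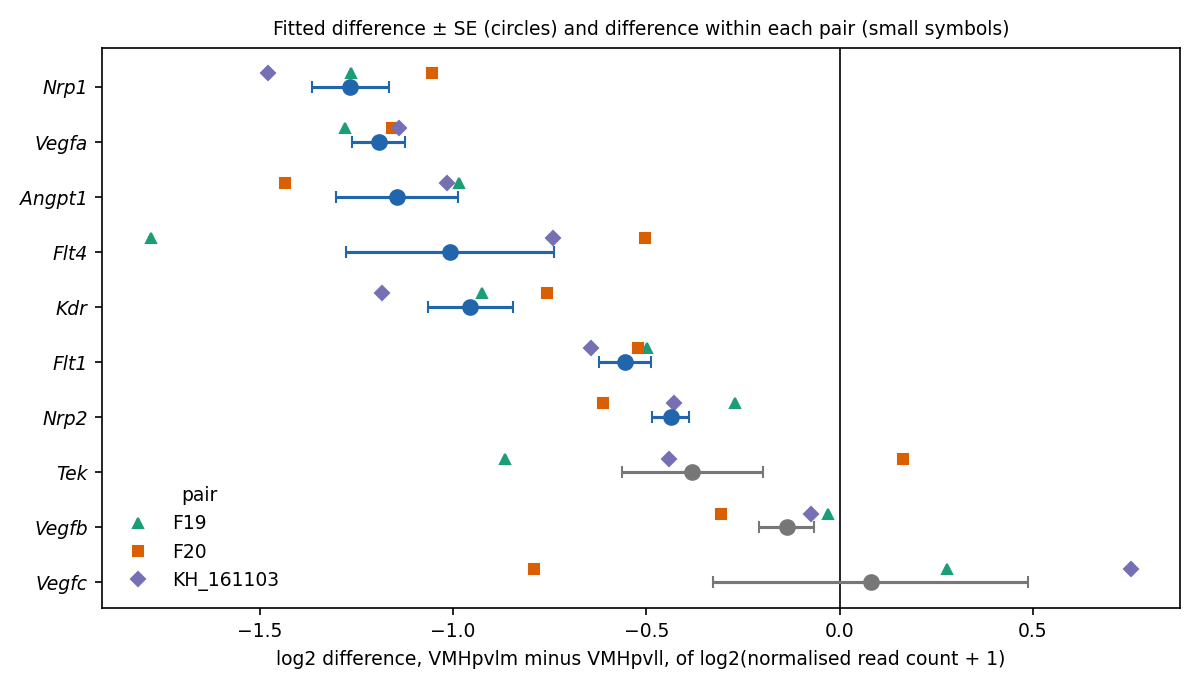
Difference of VMHpvlm minus VMHpvll in log2(value + 1) for the 10 genes (circles with their standard error, blue where called lower in VMHpvlm and grey where not called) and for each pair (small symbols by pair name). Nrp1, at -1.27, Vegfa, at -1.19, and Angpt1, at -1.15, lie farthest to the left, and Vegfc, at 0.08, is the only gene right of 0.

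Per kilobase of exon, where levels of different genes can be roughly compared, the ligand Vegfb was highest in both areas and the order below it was similar. The length was that of all annotated exons of a gene joined, 13504 bases for Flt1 and 1605 for Vegfb. It can exceed that of the transcripts present, so the order of genes at close levels is uncertain. In VMHpvlm the levels per kilobase were 332 ± 24.3 for Vegfb, 186 ± 17.8 for Nrp2, 91.2 ± 6.07 for Vegfa and 38.2 ± 2.67 for Flt1, each apart from its neighbour (SD, n = 3). Below them in VMHpvlm came Nrp1 at 17.7 ± 2.09, Kdr at 16.8 ± 0.425, Tek at 14.8 ± 4.19 and Angpt1 at 12.2 ± 0.892, and the ranges of neighbours among these 4 overlapped. Vegfc at 5.52 ± 0.417 and Flt4 at 2.90 ± 0.824 were lowest. In VMHpvll the levels per kilobase were 367 ± 49.3 for Vegfb, 253 ± 39.5 for Nrp2 and 209 ± 20.9 for Vegfa, and the ranges of Nrp2 and Vegfa overlapped. Flt1 at 56.1 ± 1.80, Nrp1 at 42.6 ± 2.59 and Kdr at 32.9 ± 5.64 followed, each apart from the one above it. Angpt1 at 27.3 ± 2.97 overlapped both Kdr and Tek, which was at 19.4 ± 6.15. Flt4 at 5.86 ± 1.07 and Vegfc at 5.66 ± 3.06 overlapped at the low end. The ranges of Nrp1 and Kdr thus overlapped in VMHpvlm but not in VMHpvll, and Angpt1 ranked below Tek in VMHpvlm and above it in VMHpvll.

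**Figure D3:**
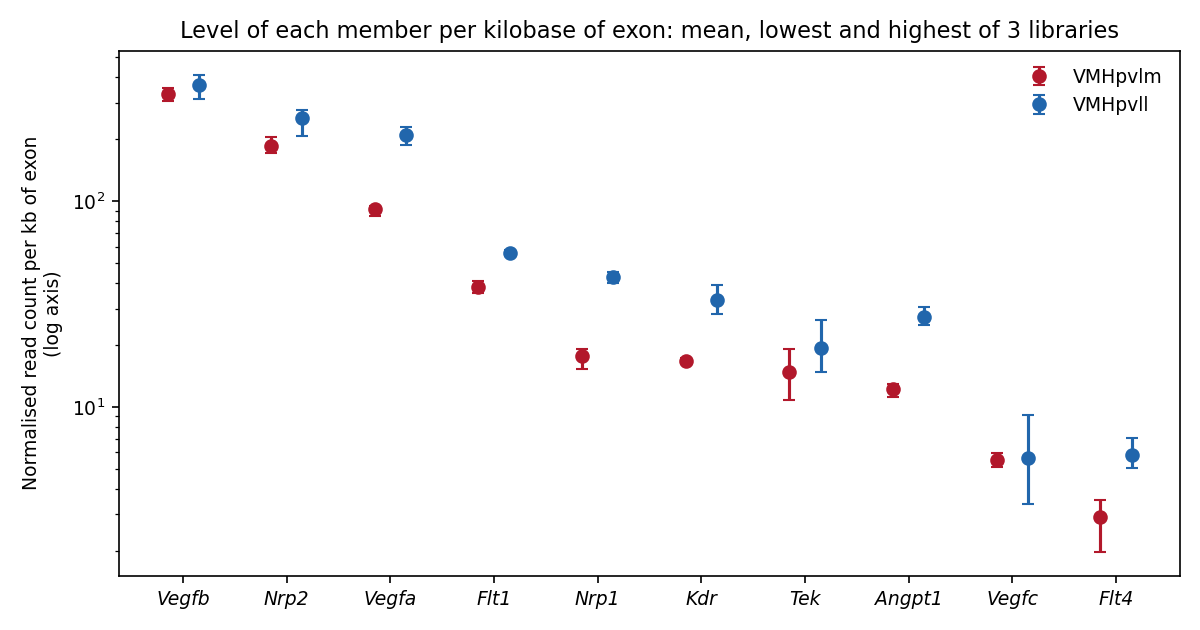
Normalised reads per kilobase of exon of the 10 genes, on a log axis, with VMHpvlm left of VMHpvll; points are means, and bars run from the lowest to the highest of 3 libraries. Vegfb heads both areas at 332 and 367, and Flt4 and Vegfc are lowest, between 2.90 and 5.86.

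The other ligands and receptors of both families were low or varied between pairs. Of 6 genes, 4 were tested and 2 were called, both lower in VMHpvlm, with a median difference of -0.37 (log2). For this and every list below, the limma shares of all genes tested were 9.48% called lower in VMHpvlm and 10.5% higher. Of the 4 genes, 0 were called without the F19 pair and 0 without the KH_161103 pair. Angpt2, the context-dependent antagonist of Tek made by remodelling endothelium, was at 4.06, 5.55 and 7.27 normalised reads in VMHpvlm, against 46.2, 4.47 and 31.0 in VMHpvll. That is 3, 4 and 8 reads in VMHpvlm against 42, 3 and 34 in VMHpvll, so the F20 library of VMHpvll was as low as VMHpvlm. The difference of -1.64 ± 0.50 was called (limma adjusted p = 0.0155), but not without the F19 pair (-0.85, adjusted p = 0.398), without the KH_161103 pair (-1.48, adjusted p = 0.197) or by DESeq2 (adjusted p = 0.0857). Ptprb, an endothelial phosphatase that acts on the Tek product, was at 414, 516 and 338 in VMHpvlm, against 629.9, 517 and 409.9 in VMHpvll, with overlap. Its difference of -0.29 ± 0.086 was called (limma adjusted p = 0.0110), but not without the F19 pair (-0.14, adjusted p = 0.404), without the KH_161103 pair (adjusted p = 0.0920) or without the pair block (adjusted p = 0.524). Tie1, the orphan receptor related to Tek, was at 30.7 ± 6.17 in VMHpvlm and 43.1 ± 12.6 in VMHpvll (SD, n = 3 each; limma adjusted p = 0.234). Pgf, the placental growth factor that binds the Flt1 product, was at 22.8 ± 1.88 in VMHpvlm and 27.8 ± 2.76 in VMHpvll (SD, n = 3 each; limma adjusted p = 0.587). Figf, which encodes VEGF-D, and Angpt4 were below the filter.

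Of 29 endothelial markers, 11 were called lower in VMHpvlm, 18 were not called and 0 were called higher (also 0 by edgeR, by DESeq2 and at an unadjusted p below 0.05), all 29 differences were below 0, and the median was -0.48 (log2). The median differed between pairs, at -0.62 for F19, -0.31 for F20 and -0.44 for KH_161103. The summed level of the list was 3009.5, 3304 and 2950.0 normalised reads in VMHpvlm, against 4093, 3987 and 3775 in VMHpvll. Pecam1, an adhesion molecule of endothelial junctions, was at 81.7 ± 13.4 in VMHpvlm and 134 ± 26.4 in VMHpvll (SD, n = 3 each; difference -0.71, limma adjusted p = 0.000644). Cldn5, a tight junction gene, was at 37.7 ± 1.49 in VMHpvlm and 66.0 ± 19.96 in VMHpvll (SD, n = 3 each; difference -0.75, limma adjusted p = 0.00887). Without the F19 pair neither was called (Pecam1 adjusted p = 0.0718, Cldn5 adjusted p = 0.217). Cdh5, the cadherin of endothelial junctions, was not called, with 67.8 ± 12.3 in VMHpvlm and 80.4 ± 10.5 in VMHpvll (SD, n = 3 each; difference -0.25, limma adjusted p = 0.387). The count of 11 of 29 stands beside 9.48% of all genes called lower in VMHpvlm. It was 6 without the F19 pair, 5 without the KH_161103 pair and 3 by DESeq2. Cell numbers were not measured.

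Set against the endothelial markers of the same library, Nrp1 and Kdr were still apart between the areas, whereas Nrp2 and Tek overlapped. Nrp1 was at 60.8, 56.7 and 50.8 reads per 1000 endothelial marker reads in VMHpvlm, against 107.7, 97.9 and 111 in VMHpvll, a mean pair difference of -0.91 (log2; SD 0.186, n = 3). Kdr was at 49.1, 45.8 and 52.6 per 1000 in VMHpvlm, against 68.8, 64.3 and 93.8 in VMHpvll, a mean pair difference of -0.60 (SD 0.1997, n = 3). For both, every VMHpvlm library lay below every VMHpvll library. Flt1 was at 184, 155 and 163 per 1000 in VMHpvlm, against 191, 184 and 199.8 in VMHpvll, and the areas only just did not overlap, with a mean pair difference of -0.20 (SD 0.126, n = 3). Vegfa, at -0.84 (SD 0.0511), Angpt1, at -0.80 (SD 0.333), and Flt4, at -0.68 (SD 0.624), also did not overlap per 1000 endothelial marker reads, with VMHpvll above. Each of these 6 gave an exact two-sided permutation p = 0.1, the smallest that 3 against 3 libraries allow. This test shuffled the libraries regardless of pair name, so it does not test the mean pair differences. Nrp2 at -0.080 and Tek at -0.029 overlapped between the areas on this scale, as did Vegfb at 0.22 and Vegfc at 0.45. The share of all genes without overlap on this scale was not counted.

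The denominator mattered. Over the sum of Pecam1, Cdh5 and Cldn5, which was 173, 217 and 172 normalised reads in VMHpvlm, against 346, 249 and 247 in VMHpvll, Vegfa at -0.62 and Nrp1 at -0.70 (log2) still did not overlap between the areas, nor did Flt4 at -0.47 (exact permutation p = 0.1 each). Angpt1 at -0.58 overlapped over this sum, with differences of 0.0015 in the F19 pair, -1.25 in the F20 pair and -0.50 in the KH_161103 pair (exact permutation p = 0.3). Over the same sum, Kdr at -0.38 (exact permutation p = 0.3) overlapped, and its F19 pair had the higher value in VMHpvlm, at 0.067. Flt1 averaged 0.019 over that sum from pairs that went both ways, at 0.50 in F19, -0.32 in F20 and -0.12 in KH_161103 (SD 0.428, n = 3; exact permutation p = 1). For this sum too, the share of all genes without overlap was not counted. Vegfa, Nrp1, Nrp2 and Angpt1 are also made outside endothelium, so for them the scale compares RNA of different cells.

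**Figure D4:**
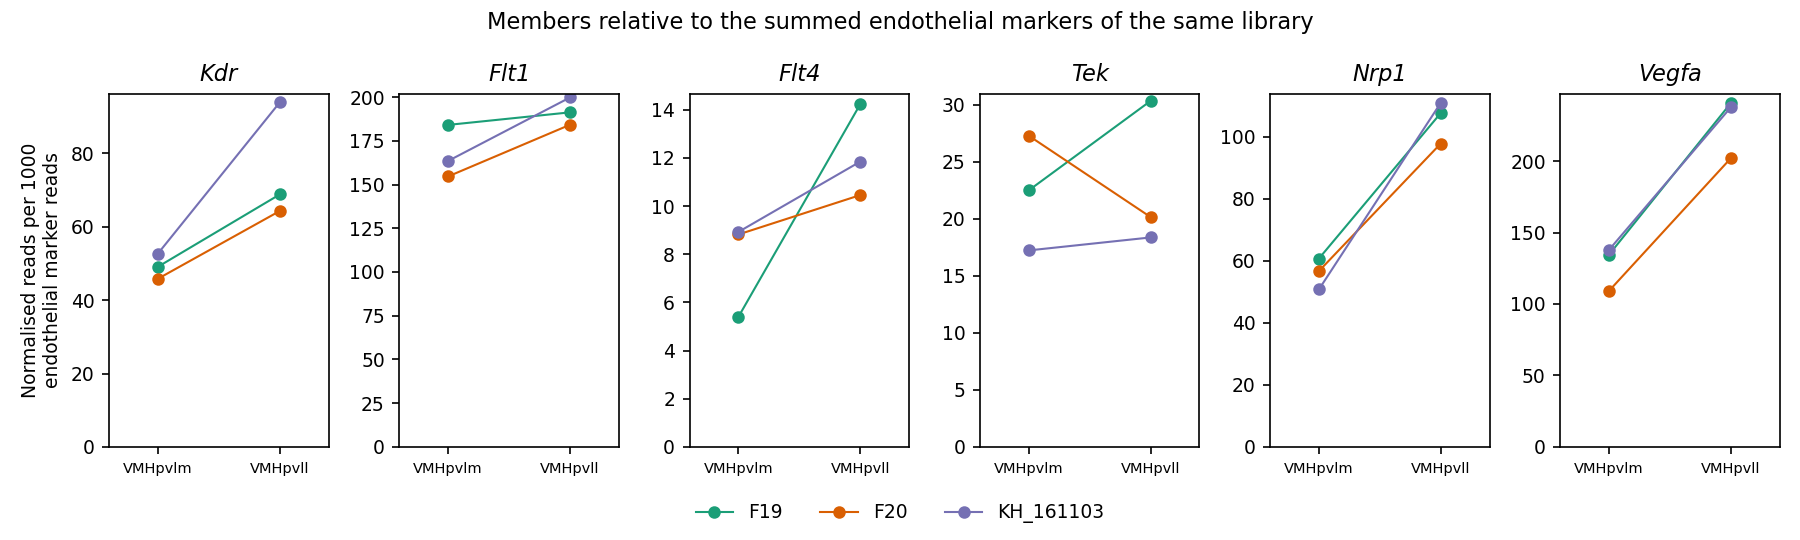
Normalised reads of Kdr, Flt1, Flt4, Tek, Nrp1 and Vegfa per 1000 reads of the 29 endothelial markers in the same library, on axes that start at 0, with VMHpvlm left of VMHpvll; points are libraries and lines join the libraries of 1 pair name. Nrp1, Kdr and Vegfa lie apart between the areas, Flt1 is close to level and Tek overlaps.

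Some genes of the Notch and sprouting list and of the mural and fibroblast list were lower in VMHpvlm. Of 18 Notch and sprouting genes 15 were tested, 4 were called lower in VMHpvlm and 0 higher (also 0 by edgeR, by DESeq2 and at an unadjusted p below 0.05), with a median of -0.31. The other 11 were not called, among them Dll4 and Apln, both at -0.31, and Dll1, with the highest difference of the list at 0.38. The sprouting genes Esm1, Aplnr and Cxcr4 were below the filter, with 0 to 7 reads in a library. Pdgfb, the growth factor by which endothelial tip cells recruit pericytes, was at 68.1 ± 19.1 normalised reads in VMHpvlm and 187 ± 26.8 in VMHpvll (SD, n = 3 each; difference -1.47 ± 0.16, limma adjusted p = 4.54e-10). Notch1, a receptor that restrains sprouting, was at 292 ± 29.7 in VMHpvlm and 404 ± 57.9 in VMHpvll (SD, n = 3 each; difference -0.46, limma adjusted p = 5.91e-05). Unc5b, a netrin receptor of endothelium and neurons, differed by -0.72 (adjusted p = 9.82e-05), and the Notch target Heyl by -0.34 (adjusted p = 0.0253; 0.294 without the F19 pair and 0.164 without the KH_161103 pair). Of 18 mural and fibroblast markers 15 were tested and 4 were called lower in VMHpvlm, among them the pericyte genes Rgs5 at -0.28 (adjusted p = 0.00169) and Pdgfrb at -0.51 (adjusted p = 0.00384). The median of the mural list was -0.78 in the F19 pair, 0.034 in the F20 pair and -0.26 in the KH_161103 pair. The count of 4 mural genes was 1 without the F19 pair, 8 without the F20 pair, 1 without the KH_161103 pair and 0 by DESeq2. Which cells held the RNA of Pdgfb and of the other genes of these lists was not tested.

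Semaphorins and plexins, which share the neuropilins with VEGFs, moved in both directions. Of 13 genes, 4 were called higher in VMHpvlm and 2 lower, beside 10.5% and 9.48% of all genes, with a median of 0.19. Plxna2, a plexin that signals with neuropilins, was at 1734 ± 86.9 normalised reads in VMHpvlm and 883 ± 27.7 in VMHpvll (SD, n = 3 each; difference 0.97 ± 0.052, limma adjusted p = 2.13e-19). Plxna1 was at 2729 ± 83.6 in VMHpvlm and 2223 ± 149 in VMHpvll (SD, n = 3 each; difference 0.30, limma adjusted p = 4.73e-07). Sema3a, the semaphorin that binds the Nrp1 product, was at 239 ± 19.4 in VMHpvlm and 174 ± 4.94 in VMHpvll (SD, n = 3 each; difference 0.46, limma adjusted p = 0.00151), and was named after its values were seen; DESeq2 did not call it (adjusted p = 0.0973). In the other direction, Sema3e was at 81.7 ± 14.9 in VMHpvlm and 175 ± 27.7 in VMHpvll (SD, n = 3 each; difference -1.10, limma adjusted p = 7.04e-08). Plxnd1, the receptor that binds semaphorin 3E without a neuropilin and is found on endothelium, was at 160.1 ± 5.92 in VMHpvlm and 231 ± 42.0 in VMHpvll (SD, n = 3 each; difference -0.51, limma adjusted p = 0.000990). Without the F19 pair Plxnd1 was not called (-0.35, adjusted p = 0.0917). Nrp1 and its ligand gene Sema3a thus differed in opposite directions between the areas.

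Hypoxia-linked genes were called in both directions. Vegfa is a textbook target of hypoxia, and a part of hypoxia in its difference was not tested. Of 10 oxygen-sensing genes, 1 was called higher in VMHpvlm and 2 lower, with a median of -0.11. Epas1, which encodes the HIF-2 alpha subunit prominent in endothelium, was at 1666 ± 123 normalised reads in VMHpvlm and 2028 ± 187 in VMHpvll (SD, n = 3 each; difference -0.28, limma adjusted p = 4.85e-06). Hif1a was at 1323 ± 62.2 in VMHpvlm and 1481 ± 21.9 in VMHpvll (SD, n = 3 each; difference -0.16, limma adjusted p = 0.0137), and was not called with libraries scaled to the same total (adjusted p = 0.0545), without the F19 pair (adjusted p = 0.0520) or without the KH_161103 pair (adjusted p = 0.228). Arnt2, a partner of the HIF subunits in neurons, was at 2387 ± 113 in VMHpvlm and 1908 ± 81.7 in VMHpvll (SD, n = 3 each; difference 0.32, limma adjusted p = 1.14e-07). Of 18 further hypoxia targets 16 were tested, with a median of -0.030. Of these, 1 was called higher in VMHpvlm and 4 lower, beside 10.5% and 9.48% of all genes. Ldha, lactate dehydrogenase A, was at 1256 ± 19.6 in VMHpvlm and 1843 ± 51.8 in VMHpvll (SD, n = 3 each; difference -0.55, limma adjusted p = 1.21e-12). The glucose transporter gene Slc2a1 was at 369 ± 8.69 in VMHpvlm and 469 ± 9.45 in VMHpvll (SD, n = 3 each; difference -0.34, limma adjusted p = 0.000941), and DESeq2 did not call it (adjusted p = 0.0630). The target called higher was not called without the F19 pair or without the KH_161103 pair. Among those called lower, Vldlr overlapped between the areas. It was not called by DESeq2 (adjusted p = 0.263) or without the KH_161103 pair (limma adjusted p = 0.662). Ldha and Pfkfb3 were called by DESeq2 too (adjusted p = 2.91e-12 and 0.00156).

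The signalling genes downstream of the receptors showed no common direction. Of 25 genes 21 were tested, with a median of -0.047. Of these, 3 were called higher in VMHpvlm and 3 lower, near the 10.5% and 9.48% of all genes. Prkcb, a protein kinase C isoform abundant in neurons, was at 2297 ± 81.5 normalised reads in VMHpvlm and 1688 ± 104 in VMHpvll (SD, n = 3 each; difference 0.45, limma adjusted p = 6.25e-11). Shc2, an adaptor protein gene, was at 331 ± 14.8 in VMHpvlm and 425 ± 16.9 in VMHpvll (SD, n = 3 each; difference -0.36, limma adjusted p = 0.000953). DESeq2 did not call Shc2 (adjusted p = 0.0654). Of the 3 genes called higher, 1 was called without the KH_161103 pair.

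Markers of some other cells that can carry these transcripts also differed, whereas 0 microglia markers were called. Of 14 astrocyte markers, 7 were called lower in VMHpvlm and 0 higher (also 0 by edgeR, by DESeq2 and at an unadjusted p below 0.05), with a median of -0.19 and a summed level of 36796 to 39322 normalised reads in VMHpvlm and 42670.2 to 47933 in VMHpvll. Aqp4, the water channel of astrocyte endfeet, had 659.9 ± 42.1 in VMHpvlm and 878 ± 39.9 in VMHpvll, and the filament gene Gfap had 246 ± 41.6 in VMHpvlm and 544 ± 142 in VMHpvll (SD, n = 3 each; limma adjusted p = 2.25e-06 and 0.000186). Of 10 oligodendrocyte markers 9 were called lower in VMHpvlm, with a median of -0.41 and sums of 11972 to 13697 in VMHpvlm and 16138 to 17374 in VMHpvll. Of 6 precursor markers 4 were called lower in VMHpvlm, with a median of -0.24 and sums of 1559 to 1782 in VMHpvlm and 1898 to 2078 in VMHpvll. Of 9 tanycyte and ependymal markers 6 were tested and 2 were called lower in VMHpvlm, with a median of -0.59. Microglia markers gave 0 calls of 12 by limma, edgeR and DESeq2, 1 unadjusted p below 0.05 and a median of -0.054. Of 5 erythrocyte markers 3 were tested and 0 were called by limma, with a median of -0.13. Neuronal markers gave 5 of 12 higher in VMHpvlm and 1 lower, with a median of 0.075 and sums of 81796 to 87688 in VMHpvlm and 77202 to 82728 in VMHpvll. Without the F19 pair and without the KH_161103 pair the precursor count was 1 each and the tanycyte count 1 each, and without the F20 pair the tanycyte count was 4. Without the KH_161103 pair the count of neuronal markers higher in VMHpvlm was 3. With DESeq2 the counts were 4 for astrocyte, 0 for precursor and 1 for tanycyte markers lower in VMHpvlm, and 2 for neuronal markers higher. Without the pair block the precursor count was 1, the tanycyte count 1 and the neuronal count 2. All these limma counts stand beside 9.48% of all genes called lower in VMHpvlm and 10.5% called higher. The part of these cell types in the differences of Vegfa, Angpt1, Nrp1 and Nrp2 was not tested.

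**Figure D5:**
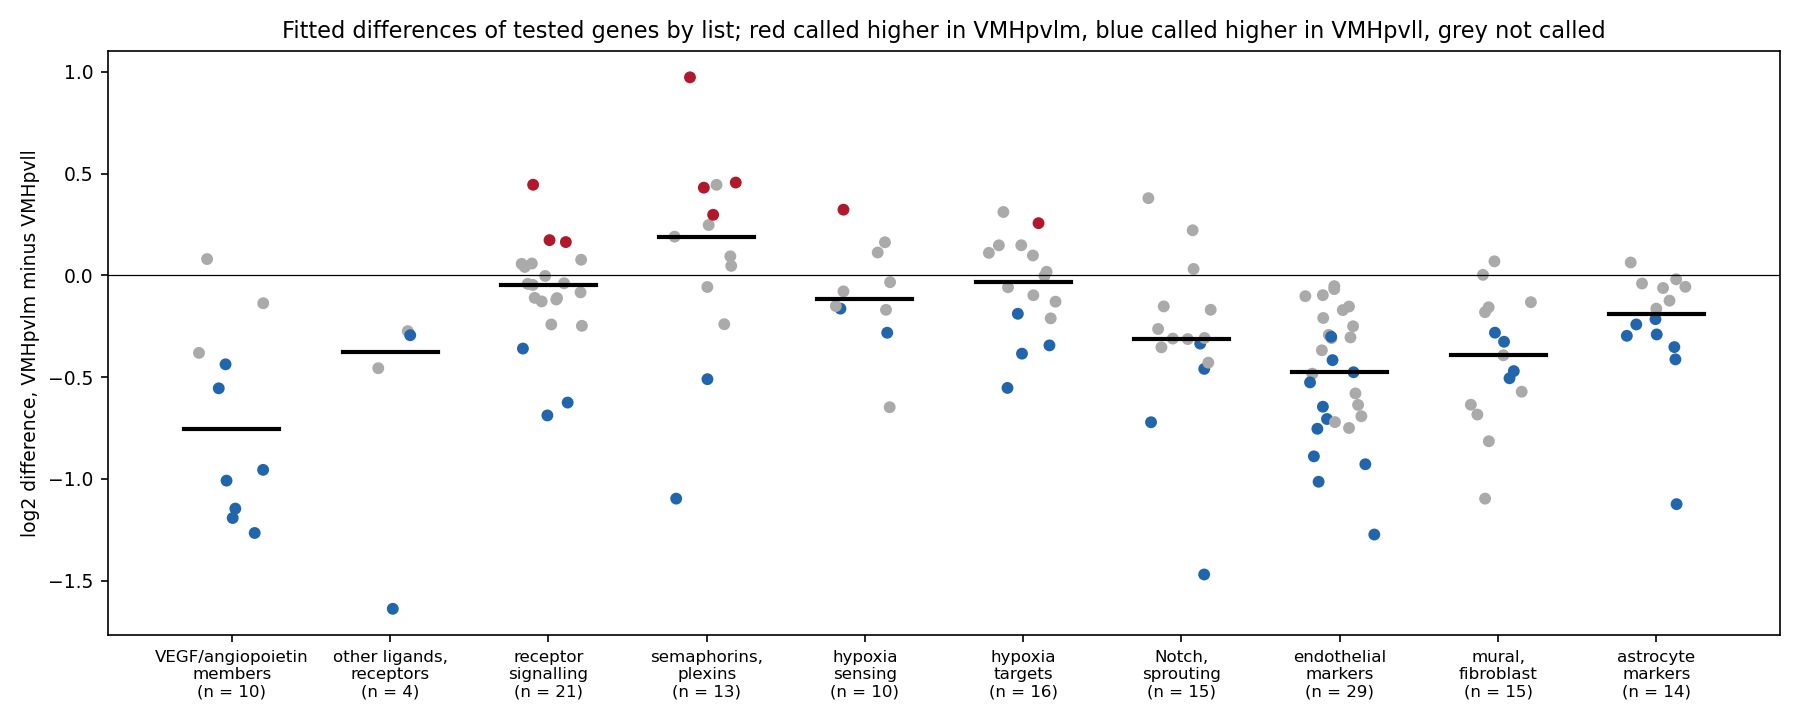
Fitted differences of VMHpvlm minus VMHpvll, in log2(value + 1), for the tested genes of 10 lists; points are genes, red where called higher in VMHpvlm, blue where called lower in VMHpvlm and grey where not called, and black lines are medians. The VEGF and angiopoietin genes have a median of -0.76, the endothelial list -0.48, the semaphorin and plexin list 0.19 and the astrocyte list -0.19.

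The genes with the most similar profile to each gene over the 6 libraries were found among 11127 genes with a mean of at least 50, by the root mean square difference of centred log2 values. For Vegfa these were Plekhg3 (0.0663), Mcf2 (0.0833) and Trpc4 (0.0849), and for Nrp1 they were Bcl11b (0.0679), Otp (0.0835) and again Mcf2 (0.0845). For Kdr they were Id2 (0.0653), AI593442 (0.0859) and AF529169 (0.0947), and for Flt1 they were Stx7 (0.0465), Man2a1 (0.0514) and Zfp110 (0.0533). Nrp2 was closest to Id4 (0.0325), 9530077C05Rik (0.0424) and Grm4 (0.0427), and Angpt1 to Marcksl1 (0.0823), Nkx2-4 (0.0869) and Sv2c (0.107). Flt4 was closest to Cand2 (0.180), Ppcs (0.181) and the endothelial marker Cd34 (0.196), and Tek to Lama5 (0.0985), Cp (0.120) and Ptprb (0.122). Vegfb was closest to Rrs1 (0.0309), Rpap2 (0.0370) and Nefh (0.0375), and Vegfc, at its low counts, to Rpl38-ps2 (0.179), Ppm1d (0.207) and Fam173a (0.211). Over 6 libraries such closeness describes a profile only.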

How the data were processed

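Total RNA from laser-captured VMHpvlm and VMHpvll of female mice was sequenced in 6 libraries, 3 per area, made with a stranded total RNA kit, per the labels' protocols. Per the submitters' processing notes, HISAT2, featureCounts and mm10 were used; their versions, the annotation and the strand setting are not given in the sources at hand. The deposited values are a signal: reads per gene after scaling by a factor that is constant within a library. In every library 100% of the values were whole multiples of 1 read within 0.05 reads, and the recovered counts totalled 7157831 to 11293159 reads. These depths limit the genes with few reads, such as Vegfc.

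The test was limma 3.58.1 (R 4.3.3; lmFit and trended, robust eBayes) on log2(value + 1) of 14522 genes whose mean was at least 10, with area and pair name as terms, two-sided, with Benjamini-Hochberg adjustment and a threshold of 0.05. The design left 2 residual degrees of freedom and the variance prior added a median of 39.9. The log2(value + 1) scale understates the change of low genes. Same-named libraries deviated together from the area means, with correlations of 0.26, 0.24 and 0.36 over genes, against -0.25 to 0.0067 for other names, so the names were taken to pair the libraries. In the KH_161103 pair the titles give only the letters C (VMHpvlm) and D (VMHpvll), and the area came from the source name. Replicates differed by more than sampling noise (chi-square per degree of freedom 5.69 to 10.1).

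GENCODE M21 (mm10) gave positions and exon lengths and matched 96.5% of the tested symbols, and RefSeq gave the promoters. The members and gene lists were chosen with earlier results of these data known. All 10 members were named, and from each other list up to 4 tested genes by smallest p, some markers whatever their p (Pecam1, Cdh5, Cldn5, Tie1, Nr5a1, Fezf1, Slc17a6, Esr1), and the 3 nearest profiles per member. Some of those that met the rule are given only in counts. The limma and edgeR steps were tested on simulated data. Alternatives were no pair block, pseudocounts of 0.5 and 5, no filter and a mean of at least 50, 3 other scalings, a prior without trend or robust, the count tests of DESeq2 1.42.0 and edgeR 4.0.16 on recovered reads, and fits that each omit 1 library or pair.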

Additional observations from a re-analysis of the deposited data

How the results depend on the processing

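Vegfa, Kdr, Nrp1 and Angpt1 were called lower in VMHpvlm under all 20 alternatives, Flt1 under 19 of 20, Nrp2 under 18 of 20 and Flt4 under 14 of 19. Vegfb was called under 0 of 20, Vegfc under 0 of 19 and Tek under 3 of 20. Fits that omit 1 library kept the pair block and nearly repeat the fit without its pair, so these alternatives are not independent checks. The 3 calls of Tek were the fits without the F20 pair or 1 of its libraries. Flt4 lost its call in every fit without the F19 pair or 1 of its libraries. The number of these genes called lower in VMHpvlm was 7 with limma and 4 without the trend and robust prior, where Flt1 had an adjusted p of 0.0538, and it was 6 to 8 when a pair or library was left out. Over all genes, 1528 were called higher and 1377 lower in VMHpvlm. These counts were 937 and 863 without the pair block, 189 and 233 without the trend and robust prior, and 648 and 582 by DESeq2. They were 897 to 1532 higher and 830 to 1392 lower when a pair or library was left out. The block ended the call of Nrp2 and of no other of the 10 genes when it was dropped. With Pecam1, Cdh5 and Cldn5 as the endothelial denominator, the mean pair difference was -0.62 for Vegfa, -0.38 for Kdr and -0.70 for Nrp1, and it turned to 0.019 for Flt1. The cause of these changes was not tested. With 2 residual degrees of freedom the calls rest largely on the shared variance prior. A library whose partner is omitted is fitted exactly by its own pair term and adds nothing to the area difference. Depth limits Vegfc, Flt4 and Angpt2, with 3 to 53 reads in a library.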
